A study of Mus musculus with 5 samples.

Results

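The serum- and glucocorticoid-regulated kinase (Sgk) pathway was followed as 10 genes among the 20178 transcripts counted in cultured mouse glia and neural precursors. They were taken by symbol, as the rows whose RefSeq accession belongs to Sgk1, Sgk2, Sgk3, Pdpk1, Rictor, Mapkap1, Nr3c1, Nr3c2, Nedd4l or Ndrg1, and each symbol had exactly 1 row. RNA-seq had been run on 5 libraries of ICR mouse cells at passage 2, with 1 library per condition. Ventral midbrain (VM) astrocytes from pups of postnatal day 5 were sequenced without virus and after transduction in the libraries titled VM C and VM NF. Cortical (Ctx) astrocytes of postnatal day 5 and Ctx neural precursor cells (NPCs) from embryos of day 12 received no virus. The labels call all astrocyte cultures astrocyte progenitor cells, and nothing in them says how many animals were pooled. By the study's methods, its lentiviral vectors carried mouse Nurr1 and rat Foxa2 cDNA behind a CMV promoter, active in any transduced cell, and its control virus held the empty backbone.

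The labels of the transduced libraries contradict each other, since the titles read as control (C) and Nurr1 + Foxa2 (NF) while the treatment entries give the reverse. Libraries are therefore called by their titles throughout, and with the treatment entries each sign between VM NF and VM C would belong to the opposite treatment. Foxa2, a delivered gene, had 68 reads in VM astrocytes without virus, 15 in the library titled VM C and 216 in the library titled VM NF. For Nr4a2, which encodes Nurr1, these libraries gave 81, 53 and 183 reads. VM NF was the highest for each, which goes with the titles. The pair of transduced libraries compares Sgk1 mRNA between VM cultures with more and with fewer reads of Foxa2 and Nr4a2. It does not compare cultures with and without these genes, and the VM library without virus had more reads of each than VM C. Counted reads per library lay between 20010818 and 22554835, and a gene with 3 reads stands at 0.133 to 0.150 CPM (counts scaled to a common library total), the smallest share taken as measurable. With 1 library per condition there was no replicate check and no test of a condition. Intervals are exact (Clopper-Pearson) 95% intervals, and they cover counting error only, not the variation between cultures.

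Sgk1, Sgk2 and Sgk3 are serine/threonine kinases of the AGC family, close relatives of Akt. They become active once mTOR complex 2 (mTORC2) phosphorylates a hydrophobic motif near the end of the kinase and Pdk1 then phosphorylates the activation loop. Sgk1 is known above all for the control of its mRNA and protein amount, which rise quickly after serum, glucocorticoids, mineralocorticoids or cell shrinkage. In brain, it has been described in neurons, in oligodendrocytes after stress hormones, and in astrocytes and microglia. Its best known substrates are the ubiquitin ligase Nedd4-2, the product of Nedd4l, and the stress-response protein Ndrg1, whose phosphorylated form is used as a readout of Sgk activity.

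Sgk1 lies on chromosome 10 of GRCm38 from 21882184 to 21999903, and the RefSeq promoter table gives 6 start sites for it, of which 5 could be paired with a named RefSeq transcript. The files list the gene under NM_001161845, which begins at the most distal of them, 112482 bases before the last. A glucocorticoid receptor dimer binds a palindrome, so the windows around these starts were searched on both strands for the consensus glucocorticoid response element, in which the arms AGAACA and TGTTCT are separated by any 3 bases, and for the single arm TGTTCT, which is contained in it. The full element was found before the fifth start, that of NM_001161850, at chr10:21993701-21993715, or -189 to -175 from the start, and reads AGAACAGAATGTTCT. It stands in 3 of 32851 windows of 300 bases from RefSeq (GRCm38.p6), 0.00913% of them, whereas the single arm stands in 19% of windows. The 250 bases upstream of the start of the listed transcript, of the start with the full element, and of the last start, that of NM_011361, are given from 5′ to 3′ on the plus strand, with capitals for the element and its single arms.
Sgk1 start 1, chr10:21881934-21882183: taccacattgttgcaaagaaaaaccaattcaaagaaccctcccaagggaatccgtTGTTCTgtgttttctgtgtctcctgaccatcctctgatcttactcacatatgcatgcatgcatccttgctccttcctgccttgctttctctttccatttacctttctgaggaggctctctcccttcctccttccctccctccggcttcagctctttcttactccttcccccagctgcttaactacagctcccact
Sgk1 start 5, chr10:21993640-21993889: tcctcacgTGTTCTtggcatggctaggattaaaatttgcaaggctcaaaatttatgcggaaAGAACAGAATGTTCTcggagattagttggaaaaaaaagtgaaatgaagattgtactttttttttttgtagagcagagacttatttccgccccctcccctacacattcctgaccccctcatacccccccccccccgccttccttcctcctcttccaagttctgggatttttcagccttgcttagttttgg
Sgk1 start 6, chr10:21994416-21994665: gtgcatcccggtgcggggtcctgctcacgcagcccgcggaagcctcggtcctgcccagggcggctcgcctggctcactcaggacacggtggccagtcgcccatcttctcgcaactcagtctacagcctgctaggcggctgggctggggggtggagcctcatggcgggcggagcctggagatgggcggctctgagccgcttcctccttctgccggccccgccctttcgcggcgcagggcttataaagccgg
The window of the sixth start was richest in G and C, at 69.7% against 49.7% and 46.3% for the other windows shown, and it held no match. The fourth start had a single arm at -13 to -8. AAAGGTCA, a site bound by Nurr1 as a monomer, and TGTTTAC, a forkhead core, were also searched on both strands and stood in 1.51% and 3.65% of windows. Neither was found in the 6 windows of Sgk1, nor was TGACGTCA, the cyclic AMP response element (1.79% of windows). Among the other genes, windows were matched for Pdpk1, Rictor, Mapkap1 and Nr3c2, and the forkhead core was found at a single place, at -99 to -93 from the first start of Mapkap1, on the minus strand. A match to these letters is a description of the sequence and shows no binding, and the deposited counts do not say from which Sgk1 start the transcripts came.

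**Figure D1:**
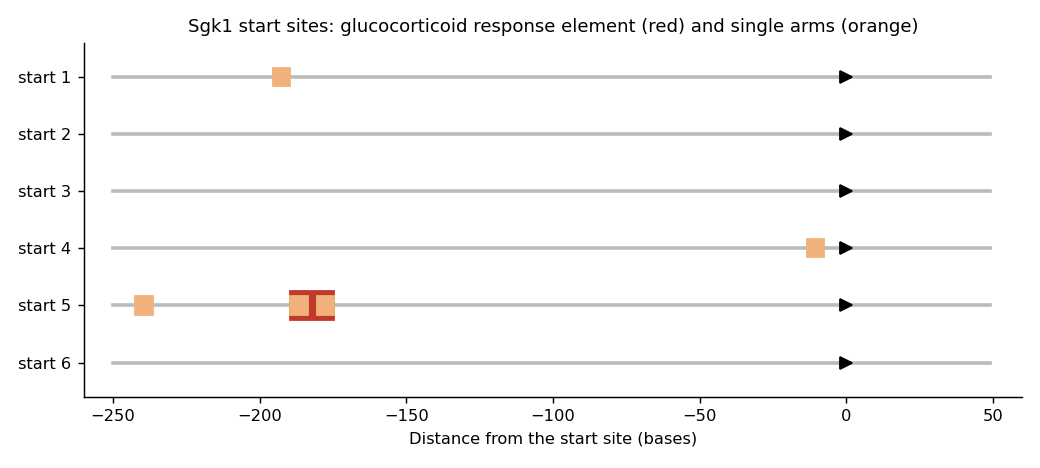
Matches to the glucocorticoid response element around the 6 RefSeq starts of Sgk1, with the horizontal axis in bases from each start site (arrowhead) and grey lines for the windows searched. The full element (red), at -189 to -175 from start 5, is the only one in the 6 windows, and single arms (orange) stand before starts 1, 4 and 5.

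Sgk1 was by far the most abundant of the Sgk kinases in each library. Its level was 50.0 FPKM (counts scaled to transcript length and library total) in VM astrocytes without virus, 113 in VM C, 46.5 in VM NF, 23.5 in Ctx astrocytes and 65.2 in Ctx NPCs. The other kinases stayed far below it. Sgk3 (NM_001037759, chromosome 1 from 9798130 to 9902570), whose protein carries a PX domain that brings it to endosomes, ranged only from 2.42 to 3.47 FPKM. Sgk2 was between 0.0183 and 0.0383 FPKM in the astrocyte libraries and reached 1.95 FPKM in Ctx NPCs. Sgk1 therefore made up 88.7% (Ctx astrocytes) to 97.4% (VM C) of the summed FPKM of these kinases, and its FPKM was 7.96 times that of Sgk3 in Ctx astrocytes and 38.6 times in VM C. By level, Sgk1 ranked 578 of 20178 transcripts in VM C and 3631 in Ctx astrocytes.

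**Figure D2:**
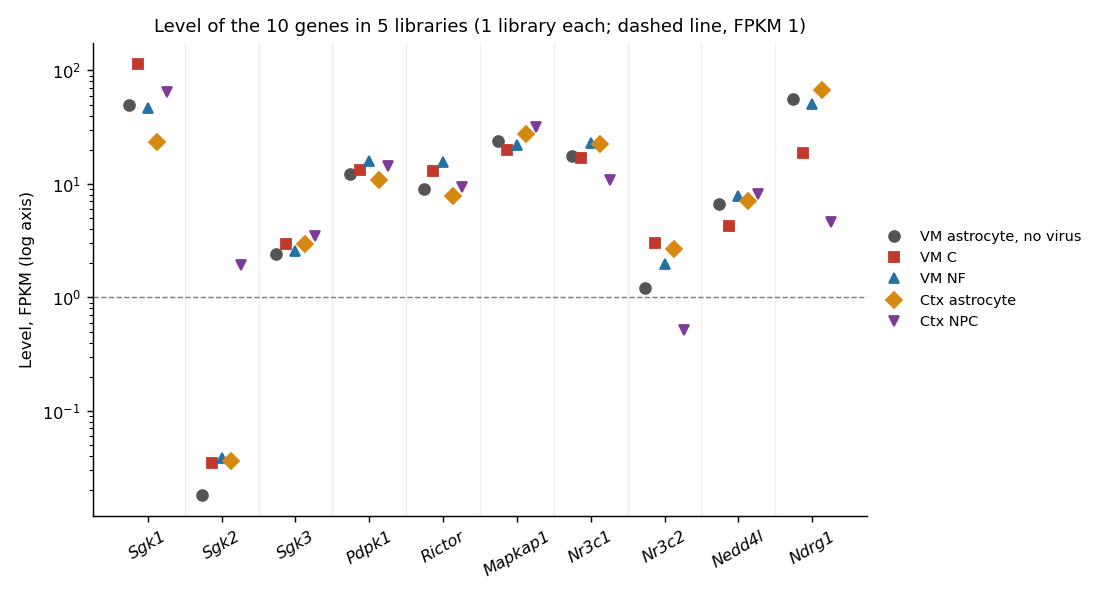
Level of each of the 10 genes in FPKM (log axis) in the 5 libraries, 1 point per library with no error bar, since each condition had 1 library. Sgk1 spans 23.5 to 113 FPKM and Ndrg1 4.64 to 67.3 FPKM, while Sgk3, Pdpk1 and Mapkap1 stay within narrow ranges.

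The order of Sgk1 among the libraries ran from VM C over Ctx NPCs, VM astrocytes without virus and VM NF to Ctx astrocytes. Sgk1 had 7977 reads in VM C, 4067 in Ctx NPCs, 3319 in VM astrocytes without virus, 2947 in VM NF and 1574 in Ctx astrocytes, which is 354, 203, 156, 145 and 73.4 CPM. VM C stood above all others and Ctx astrocytes below all others, and the highest was 4.82 times the lowest (interval 4.56 to 5.09). The untransduced VM and VM NF libraries were the closest neighbours, at a ratio of 1.08 (1.02 to 1.13). In VM NF against VM C, the log2 ratio of Sgk1 was -1.29 (-1.35 to -1.23), a 2.44-fold lower value. Over the VM library without virus, the log2 ratio of VM C was 1.18 (1.12 to 1.24). Ctx astrocytes were 2.12-fold below VM astrocytes, both without virus (2.00 to 2.25), and Ctx NPCs were 2.77-fold above Ctx astrocytes (2.61 to 2.94). VM C is thus the VM library whose Sgk1 reads stood apart, with the untransduced library on the side of VM NF.

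Sgk2 (NM_013731, chromosome 2 from 162987327 to 163014139), a kinase best known from liver, kidney and pancreas, was counted almost only in the NPC culture. It had 100 reads in Ctx NPCs, 1 in VM astrocytes without virus and 2 in each of VM C, VM NF and Ctx astrocytes. The astrocyte counts lie at or under the floor of 3 reads, so Sgk2 was not measurable there and no ratio among these libraries is given. Between Ctx NPCs and Ctx astrocytes, the log2 ratio was 5.42 with 0.5 reads added, and the interval of the reads ran from 3.85 to 8.81. Sgk3 had 376 reads in Ctx NPCs, 343 in Ctx astrocytes, 279 in VM astrocytes without virus, 359 in VM C and 280 in VM NF. Its highest level was 1.43 times its lowest (1.23 to 1.68), and below Ctx NPCs no neighbours in its order differed beyond counting error.

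Each activator of the kinases stayed within 2-fold over the 5 libraries. Pdpk1 (NM_011062, chromosome 17 from 24073680 to 24155619), which encodes Pdk1, ranged from 10.9 FPKM in Ctx astrocytes to 15.8 FPKM in VM NF, with reads of 1674 and 2304. It had 1865 reads in VM astrocytes without virus, 2159 in VM C and 2060 in Ctx NPCs, and its highest CPM was 1.45 times its lowest. Rictor (NM_030168, chromosome 15 from 6708349 to 6800401), the scaffold that defines mTORC2, was the most variable of the activators. Its highest CPM was 1.99 times its lowest, with an interval from 1.87 to 2.12 that includes values over 2-fold. Rictor had 1809 reads in VM astrocytes without virus, 2750 in VM C, 2990 in VM NF, 1582 in Ctx astrocytes and 1741 in Ctx NPCs. Both transduced libraries were above the 3 untransduced ones, which lay between 73.8 and 87.0 CPM against 122 and 147 CPM. Against the VM library without virus, the log2 ratio of Rictor was 0.52 in VM C (0.44 to 0.61) and 0.79 in VM NF (0.71 to 0.88), neither of which reached 2-fold. The latter was above that of 99.1% of transcripts. Both ratios use the same untransduced library.

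Mapkap1 (NM_177345, chromosome 2 from 34406771 to 34624958), which encodes Sin1, the mTORC2 subunit that holds substrates such as Sgk1, did not follow Rictor among the VM libraries. It had 1755 reads in VM astrocytes without virus, 1562 in VM C, 1565 in VM NF, 2053 in Ctx astrocytes and 2176 in Ctx NPCs. Its log2 ratio of VM C to the untransduced VM library was -0.25 (-0.35 to -0.15), and for VM NF the interval, -0.20 to 0.00, included no difference. In FPKM, Mapkap1 exceeded Rictor 3.50-fold in Ctx astrocytes, 3.37-fold in Ctx NPCs and 2.62-fold in VM astrocytes without virus, but 1.53-fold in VM C and 1.41-fold in VM NF. The relation between the transcripts of these mTORC2 subunits was thus lower in both transduced libraries.

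The steroid receptors differed in abundance and in their order among libraries. Nr3c1 (NM_008173), the glucocorticoid receptor, was found at 10.7 to 23.1 FPKM, and Nr3c2 (NM_001083906, chromosome 8 from 76898083 to 77245012), the mineralocorticoid receptor, at 0.512 to 3.0 FPKM. Nr3c1 had 2370 reads in VM astrocytes without virus, 2401 in VM C, 2979 in VM NF, 3035 in Ctx astrocytes and 1360 in Ctx NPCs. VM NF and Ctx astrocytes were the high libraries and could not be told apart by counting error (ratio 1.03, 0.983 to 1.09), nor could VM C and the untransduced VM library (interval 0.987 to 1.11 of the latter over the former). Ctx NPCs were lowest, 2.08-fold below Ctx astrocytes (1.95 to 2.22). Between VM NF and VM C, Nr3c1 differed by 0.46 on the log2 scale (0.38 to 0.54), which is opposite in sign to Sgk1.

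Nr3c2 followed another order. It had 105 reads in VM astrocytes without virus, 277 in VM C, 163 in VM NF, 234 in Ctx astrocytes and 42 in Ctx NPCs. VM C and Ctx astrocytes were highest, at 12.3 and 10.9 CPM with overlapping counting error, and Ctx NPCs were lowest, at 2.10 CPM. VM C exceeded the untransduced VM library 2.48-fold, with an interval from 1.98 to 3.15 that includes values under 2-fold. Ctx astrocytes exceeded VM astrocytes without virus 2.21-fold (1.75 to 2.82), and Ctx NPCs were 5.15-fold below Ctx astrocytes (3.73 to 7.41). VM NF lay between the other VM libraries, with a log2 ratio to VM C of -0.61 (-0.90 to -0.33). The FPKM of Nr3c1 was 5.60 times that of Nr3c2 in VM C, 8.38 times in Ctx astrocytes, 11.8 times in VM NF, 14.6 times in VM astrocytes without virus and 20.9 times in Ctx NPCs.

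Among the substrates, Ndrg1 varied most and was low where Sgk1 was high. Ndrg1 (NM_008681, chromosome 15 from 66929318 to 66969641) had 4191 reads in Ctx astrocytes, 3454 in VM astrocytes without virus, 2991 in VM NF, 1223 in VM C and 270 in Ctx NPCs, which is 196, 162, 147, 54.2 and 13.5 CPM. The libraries with the most Sgk1 reads, VM C and Ctx NPCs, were those with the fewest Ndrg1 reads, and Ctx astrocytes had the least Sgk1 and the most Ndrg1. In VM NF against VM C, Ndrg1 was 2.71-fold higher (2.54 to 2.90), and in VM C it was 2.99-fold lower than in the untransduced VM library (2.80 to 3.19). Ctx NPCs were 14.5-fold below Ctx astrocytes (12.8 to 16.4). VM NF and the untransduced VM library were close, at a log2 ratio of -0.14 (-0.21 to -0.07). The FPKM of Sgk1 was 14.0 times that of Ndrg1 in Ctx NPCs and 6.08 times in VM C, but 0.918 times in VM NF, 0.895 times in VM astrocytes without virus and 0.350 times in Ctx astrocytes. These are mRNA levels, and the phosphorylated Ndrg1 protein was not measured here.

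Nedd4l (NM_001114386) was lowest in VM C. It had 1335 reads in Ctx NPCs, 1299 in VM NF, 1242 in Ctx astrocytes, 1161 in VM astrocytes without virus and 782 in VM C, which is 66.7, 63.9, 57.9, 54.5 and 34.7 CPM. The other 4 libraries lay close together, and VM C stood below them. Nedd4l in VM C was 1.57-fold below the untransduced VM library (1.43 to 1.72), and VM NF exceeded VM C by 0.88 on the log2 scale (0.75 to 1.01), short of 2-fold. Both substrates were thus at their lowest among VM libraries in VM C. Antisense genes overlap Ndrg1, Nedd4l and Pdpk1 in the GENCODE annotation, and whether the counting used strand is not given in the sources used here.

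Counted by comparison, between 0 and 5 of the 10 genes passed 2-fold. A gene was counted when the ratio was 2-fold or more and either library had FPKM > 1, and 9 of the 10 genes met this FPKM limit in each pair of astrocyte libraries, all but Sgk2. In VM NF against VM C, 1 gene was higher (Ndrg1) and 1 lower (Sgk1), where 9.53% of 12701 transcripts were higher and 9.73% lower, 19.3% in all. In VM C against the untransduced VM library, 2 genes were higher (Sgk1 and Nr3c2) and 1 lower (Ndrg1), beside 7.3% and 8.48% of 12703 transcripts, 15.8% in all. Between VM NF and the untransduced VM library 0 of the 9 genes passed 2-fold, where 0.322% of 12428 transcripts were higher and 0.668% lower, 0.99% in all. In Ctx against VM astrocytes, 1 gene was higher (Nr3c2) and 1 lower (Sgk1), beside 4.49% and 9.89% of 12553 transcripts, 14.4% in all. In Ctx NPCs against Ctx astrocytes, all 10 genes met the FPKM limit, 2 were higher (Sgk1 and Sgk2) and 3 lower (Nr3c1, Nr3c2 and Ndrg1), beside 20.1% and 17.9% of 12623 transcripts, 38.0% in all, and TMM scaling shifted this pair by 0.18 on the log2 scale downwards with the same counts. The first 3 comparisons share libraries, so their counts are not independent. The median log2 ratio of the genes that met the limit was 0.24 in VM NF against VM C, where that of all transcripts was -0.02, and 0.13 in VM C against the untransduced library, beside -0.01.

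**Figure D3:**
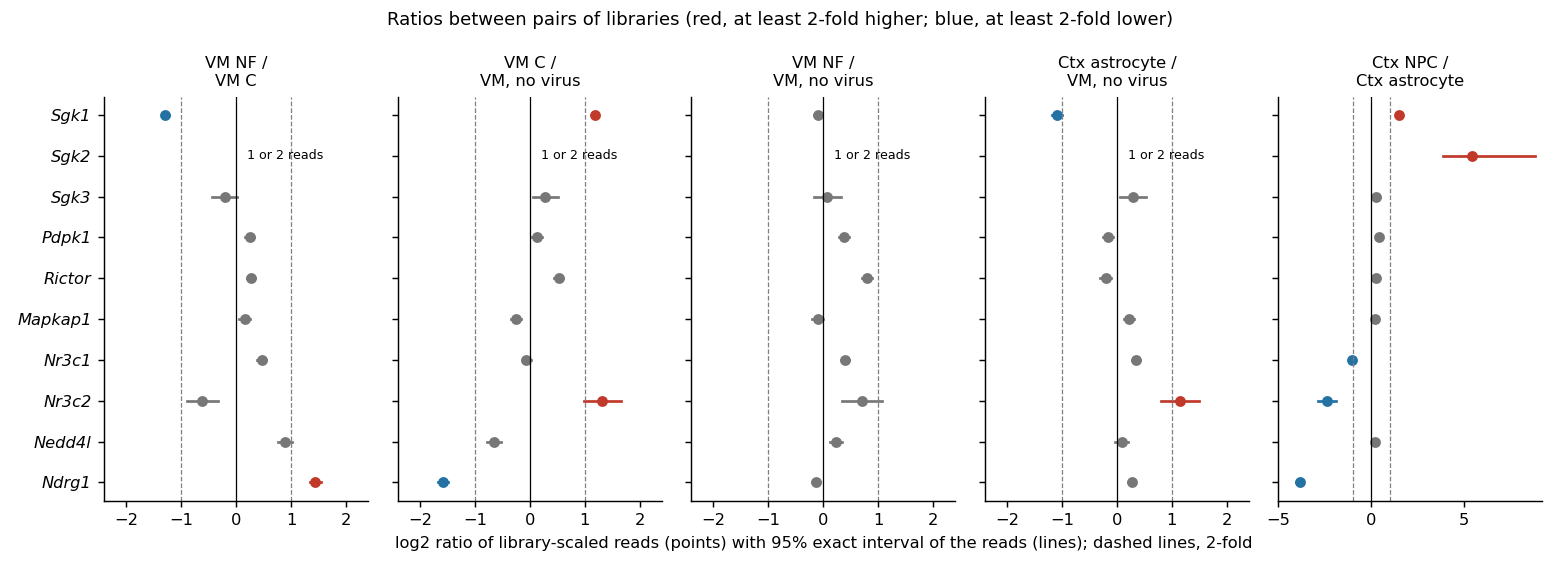
Log2 ratio of library-scaled reads for each gene (points) with the exact 95% interval of the reads (lines) in 5 pairs of libraries, on a wider axis in the last panel, with dashed lines at 2-fold. Sgk1 and Ndrg1 lie on opposite sides of 0 in VM NF against VM C (-1.29 and 1.44), in VM C against the untransduced library (1.18 and -1.58) and in Ctx NPCs against Ctx astrocytes (1.47 and -3.85), and Sgk2 is drawn only where it had more than 3 reads in a library.

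**Figure D4:**
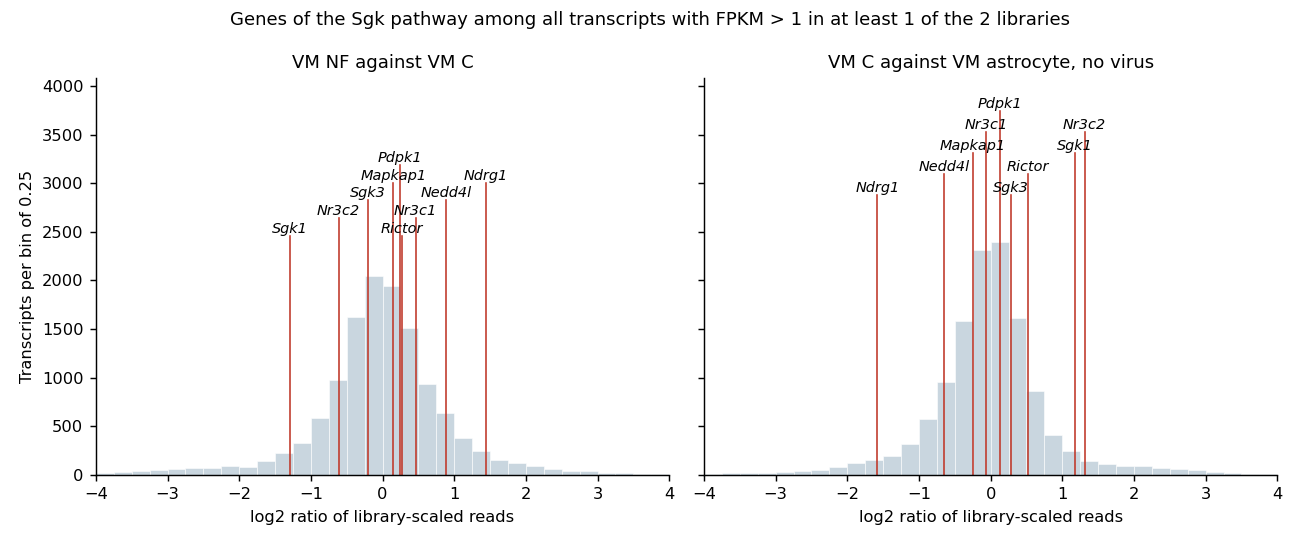
Number of transcripts per bin of 0.25 of the log2 ratio, in VM NF against VM C (left) and VM C against the untransduced VM library (right), for transcripts with FPKM > 1 in either library, drawn from -4 to 4, with red lines at 9 genes of the Sgk pathway. In both comparisons Sgk1 and Ndrg1 stand in opposite flanks of the distribution, and Pdpk1, Mapkap1 and Sgk3 stand near its centre.

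Summed markers of several other cell types had their highest or lowest value among the VM libraries in VM C, as did Sgk1, Nr3c2 and Ndrg1. Nr3c2 was higher in VM NF than without virus (163 against 105 reads), where the microglial and oligodendrocyte sums were lower. In Ctx astrocytes, Nr3c2 (234 reads) and the oligodendrocyte sums exceeded those of VM astrocytes without virus, whereas the microglial sum did not. Of 15 microglial marker genes, 14 were in the files, and their summed level was 345 CPM in VM astrocytes without virus, 1296 in VM C, 259 in VM NF, 142 in Ctx astrocytes and 27.5 in Ctx NPCs. In VM NF against VM C, 12 of the 13 microglial markers that met the FPKM limit were at least 2-fold lower. Markers of mature oligodendrocytes, 10 of 10 in the files, summed to 285, 446, 232, 324 and 8270 CPM in the same order, and those of oligodendrocyte progenitors, 6 of 6, to 357, 732, 325, 479 and 3562 CPM. In VM NF against VM C, 6 of the 8 mature oligodendrocyte markers that met the limit were at least 2-fold lower, with a median log2 ratio of -3.11. So were 5 of 6 progenitor markers, where 9.73% of all transcripts were lower. Some microglial and oligodendrocyte markers, among them Fcrls, Aif1, Mog and Gpr17, met the limit through VM C alone. These could not be counted as higher. None of the microglial markers was at 0 in the astrocyte libraries, where Fcrls alone had 3 reads or fewer (VM astrocytes without virus and VM NF), whereas in Ctx NPCs 9 of 14 had 3 reads or fewer, among them Cx3cr1, Itgam and the C1q genes, and Aif1 had 4. Ctx NPCs held Sgk1 at 203 CPM beside this low microglial sum. The astrocyte markers, 10 of 10, summed to 1897 CPM in VM astrocytes without virus, 1593 in VM C, 1632 in VM NF, 4312 in Ctx astrocytes and 10693 in Ctx NPCs. The Ctx NPC library was thus rich in glial transcripts, with 122531 reads of Gfap and 75411 of Mbp, and its name is that of the title. Single astrocyte markers moved apart in VM NF against VM C. Of the 9 that met the limit, Gfap and S100b were at least 2-fold lower and Aldh1l1 at least 2-fold higher, beside 9.73% and 9.53% of all transcripts. Neural progenitor markers, 6 of 6, summed to 6162 CPM in Ctx NPCs and 8970 in Ctx astrocytes. Their median log2 ratio was 0.54, with Hes5 and Fabp7 at least 2-fold higher and Vim lower. Neuronal markers, 8 of 8, summed to 1283 and 451 CPM, and proliferation markers, 7 of 7, to 330 and 91.2 CPM. In the VM libraries without virus, C and NF the neuronal sum was 697, 561 and 598 CPM. The median log2 ratio of the neuronal list went the other way, at 1.38 in VM C against the untransduced library and -0.87 in VM NF against VM C. Ependymal markers, 6 of 6, went with Ndrg1 among the VM libraries, at 331 CPM without virus, 62.0 in VM C and 313 in VM NF, and at 486 in Ctx astrocytes and 136 in Ctx NPCs. All 5 that met the FPKM limit were at least 2-fold lower in VM C than in the untransduced VM library, beside 8.48% of all transcripts. Among them, Dynlrb2 met the limit through the untransduced library alone. Fibroblast and mural markers, 7 of 7, summed to 3861, 2548 and 3619 CPM in the VM libraries without virus, C and NF, and endothelial markers, 5 of 5, to 66.9, 135 and 79.5 CPM. Of the fibroblast and mural list, only Acta2 and Col1a1 were at least 2-fold lower in VM C than without virus. The median log2 ratio of that list went the other way from its sum, at 0.48 in VM C against the untransduced library and -0.48 in VM NF against VM C. The part of these cell types in the Sgk values was not tested, and in bulk RNA fewer cells of a type and less RNA per cell cannot be told apart.

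The wider pathway was described with 3 gene lists. Of 26 genes of mTOR complexes and PI3K/AKT signaling, 25 met the FPKM limit in VM NF against VM C, where 3 were higher and 2 lower, beside 9.53% and 9.73% of all transcripts. The higher genes were Irs2 (log2 ratio 1.82), an adaptor of the insulin receptor, Pik3cb (1.40), a catalytic PI3K subunit, and Igf1r (1.27), the receptor of insulin-like growth factor. The lower genes were Pik3cg (-3.21) and Inpp5d (-2.84), which encode the PI3K subunit p110γ and the lipid phosphatase Ship1 and are best known from blood and immune cells. Pik3cg had 172 reads in VM astrocytes without virus, 1236 in VM C, 120 in VM NF, 55 in Ctx astrocytes and 8 in Ctx NPCs, an order shared with the microglial sum. In VM NF against VM C it met the FPKM limit through VM C alone, at 8.18 against 0.880 FPKM. In VM C against the untransduced VM library, Pik3cg (2.76) and Inpp5d (2.39) were higher and Irs2 (-1.07) lower. The median of the list was 0.08 in VM NF against VM C and -0.03 in VM C against the untransduced library, close to the medians of all transcripts.

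Other substrates and regulators of Sgk1 gave 5 higher and 0 lower genes of 23 that met the limit in VM NF against VM C. Of all transcripts, 9.53% were higher and 9.73% lower in this comparison, 19.3% in all. The 3 genes of the list with the largest ratios were Foxo6 (3.23), Scnn1a (1.53), the alpha subunit of the epithelial sodium channel, and Wnk4 (1.36), a kinase of salt transport. Foxo1 (1.24) and Foxo3 (1.05) also passed 2-fold. Foxo6, Scnn1a and Wnk4 met the FPKM limit through VM NF alone, at 3.21, 1.22 and 1.40 FPKM. In VM C they stood at 0.333, 0.417 and 0.543 FPKM. Scnn1a had 33 reads in VM C and 87 in VM NF, and Wnk4 had 51 and 119. Foxo proteins are transcription factors that Sgk and Akt kinases phosphorylate and keep out of the nucleus. Foxo1 had 1706 reads in VM astrocytes without virus, 912 in VM C, 1937 in VM NF, 2767 in Ctx astrocytes and 715 in Ctx NPCs, so its low libraries, like those of Ndrg1, were VM C and Ctx NPCs. Foxo6 had 124, 19, 165, 115 and 161 reads in the same order, low in VM C alone. In VM C against the untransduced VM library, Foxo6 (-2.76) and Scnn1a (-1.42) were lower, and both met the limit through the untransduced library alone. Of the kinase subunits of the NFκB pathway, Ikbkb had a ratio of -0.19 in VM NF against VM C and Chuk 0.12. The median of this list was 0.19 in VM NF against VM C and -0.16 in VM C against the untransduced library.

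Partners of the steroid receptors and hormone-handling enzymes gave 2 higher and 0 lower genes of 18 in VM NF against VM C, beside 9.53% and 9.73% of all transcripts, namely Per1 (2.37) and Dusp1 (1.97), both known to respond to glucocorticoids among other stimuli. Per1 had 2133 reads in VM astrocytes without virus, 784 in VM C, 3667 in VM NF, 3287 in Ctx astrocytes and 968 in Ctx NPCs. Dusp1 had 7009, 2437, 8639, 2844 and 463 reads. Both were lower in VM C than in the untransduced VM library as well, by log2 ratios of -1.53 and -1.61, so that Sgk1 went opposite to these genes there. A 2-fold ratio was not reached by Tsc22d3 (0.92 in VM NF against VM C) or by Fkbp5 (-0.54), which are also glucocorticoid-responsive. Hsd11b1, the enzyme that regenerates active glucocorticoid in cells, had 86, 100 and 82 reads in the VM libraries without virus, C and NF and 29 in Ctx astrocytes, while H6pd, which supplies its cofactor, had 2727, 4824, 2729 and 931. In Ctx against VM astrocytes the lower genes of this list were Hsd11b1 and H6pd (each -1.56) and Dusp1 (-1.31), beside 9.89% of all transcripts. Hsd11b1 met the FPKM limit through the VM library alone.

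In VM NF against the untransduced VM library, 0 genes of any of the 3 lists passed 2-fold, where 0.99% of all transcripts did. Between Ctx and VM astrocytes, 4.49% of all transcripts were higher in Ctx and 9.89% lower. Slc1a2 (2.07), Ndrg2 (1.28) and Slc1a3 (1.17) were higher, of which Slc1a2 and Slc1a3 encode the astrocytic glutamate transporters. Phlpp1 (1.53), a phosphatase of the hydrophobic motif of Akt, was also higher, and Inpp5d (-1.73), Pik3cg (-1.65) and Pik3cd (-1.24) were lower. Inpp5d and Pik3cg met the FPKM limit through the VM library alone. In Ctx NPCs against Ctx astrocytes, 20.1% of all transcripts were higher and 17.9% lower. Of 23 PI3K/mTOR genes that met the limit there, 5 were higher and 3 lower. Pik3r3 (1.98), Prr5l (1.38), an mTORC2 component, and Phlpp2 (1.27) had the largest ratios of the higher genes. Pik3cb (-2.35) and Prr5 (-1.89) were among the lower ones. Mapk7 (1.11) was higher, and Slc1a2 (-2.01), Foxo1 (-1.85) and Slc9a3r2 (-1.55) were lower with 1 further gene, Wnk1 (-1.41). Of the hormone list, Fkbp4 (1.93), a chaperone of steroid receptors, was higher, and Dusp1 (-2.52), H6pd (-1.80) and Per1 (-1.66) lower.

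**Figure D5:**
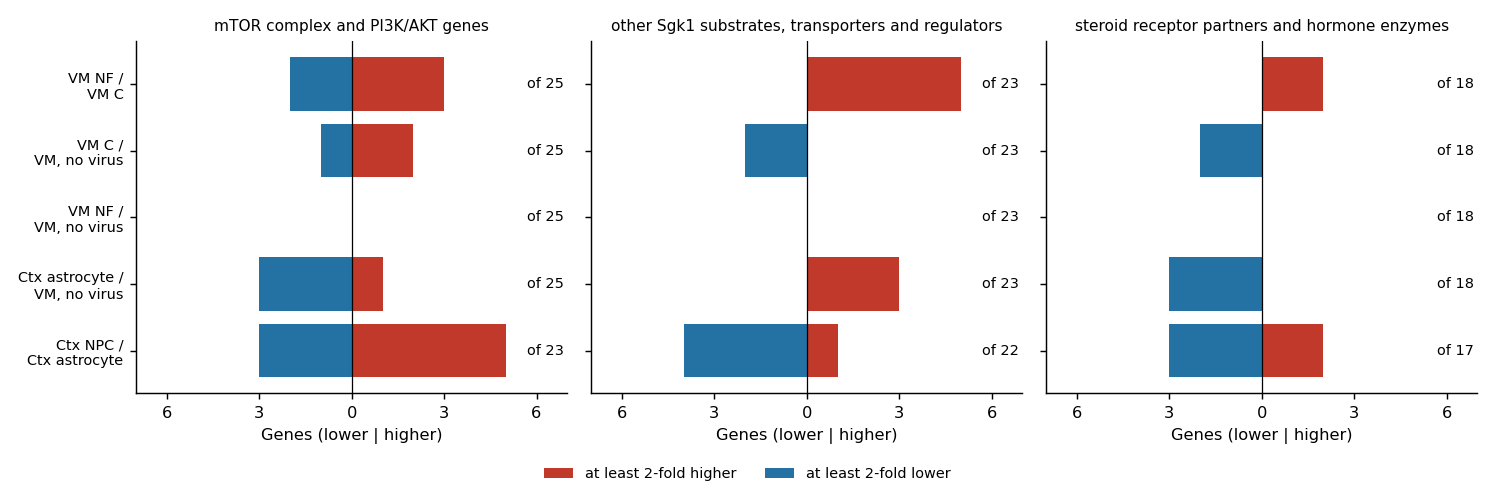
Number of genes at least 2-fold higher (red, to the right) or lower (blue, to the left) in 3 pathway lists and 5 pairs of libraries, with the number that met the FPKM limit at the right edge. VM NF against the untransduced VM library has no bar in any list, and the list of substrates and regulators has 5 higher and 0 lower genes in VM NF against VM C. Among those higher genes, Foxo6, Scnn1a and Wnk4 met the FPKM limit through VM NF alone.

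The genes whose pattern over the 5 libraries was most like that of Sgk1 were found by the root mean square difference of log2 CPM, each gene centred on its own mean, among 10718 transcripts with FPKM > 1 in all 5 libraries. Rtl5 was closest, at 0.085, followed by Mthfd1l (0.146), Bmper (0.162) and Ocel1 (0.164), where the median over all these transcripts was 0.805. Rtl5 had 312 reads in VM astrocytes without virus, 677 in VM C, 265 in VM NF, 142 in Ctx astrocytes and 323 in Ctx NPCs. Chosen for this likeness, these 4 genes were, like Sgk1, highest in VM C and lowest in Ctx astrocytes. The measure rests on 5 libraries and describes likeness of pattern only.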

How the data were processed

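Read counts and FPKM were read from 5 deposited tables, 1 per library, of mouse cells from which total RNA was prepared. The study's methods state that the authors quality-trimmed the reads, used Bowtie to check mismatch rates, aligned with STAR against GRCm38/mm10, and let HTSeq-count assign reads to exons of RefSeq genes. The submitters' processing notes name mm9, so the build is stated differently in the sources used here, and the tables hold no coordinates. The deposited counts are whole reads per transcript without normalization, and the total row was left out. The deposited FPKM corrects the counts for transcript length and for the sum of counted reads, and FPKM computed anew from the counts differed by at most 4.09e-05 in relative terms.

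Symbols were paired through RefSeq accessions on GRCm38.p6 for 19997 of 20178 transcripts. Log2 ratios were taken of counts divided by library totals, after adding 0.5 reads in proportion to each total. Intervals of ratios and shares are exact (Clopper-Pearson) at 95%. Levels of different genes were compared on FPKM only. No test of conditions was possible with 1 library each. The titles gave the groups. Named by rule were all 10 genes, up to 3 genes past 2-fold per list, comparison and direction, the genes most like Sgk1, Nr4a2 and Foxa2, and Gfap, Aif1 and Mbp. Foxo1 and Foxo3 in VM NF against VM C, Wnk1, Ikbkb, Chuk, Fkbp5, Tsc22d3, Cx3cr1, Itgam, Fcrls and the C1q genes were chosen after their values were seen. Some genes that the rule would name are not reported here. The members and lists were chosen with earlier results of these data known. Promoter windows are from RefSeq, and transcript starts and overlaps from GENCODE vM21. Alternatives were edgeR's TMM, DESeq2's size factors, upper-quartile scaling, 5 or 0 reads added, other FPKM filters and a 1.5-fold limit. The calculations were tested on simulated counts. The software was DESeq2 1.42.0 and edgeR 4.0.16 under R 4.3.3, with scipy 1.17.1, numpy 2.4.6, matplotlib 3.10.9 and pandas 2.3.3 under Python 3.11.15.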

Additional observations from a re-analysis of the deposited data

How the results depend on the processing

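Of 80 counts of genes past 2-fold recomputed under the alternatives, 75 stayed within 1.5 times. With a 1.5-fold limit, 2 genes were higher (Nedd4l and Ndrg1) and 2 lower (Sgk1 and Nr3c2) in VM NF against VM C. Of all transcripts, 18.8% were higher and 19.1% lower there. In VM C against the untransduced VM library 2 genes were lower, beside 17.4% of all transcripts. In VM NF against that library 2 were higher (Rictor and Nr3c2), beside 2.57%. With FPKM > 1 required in both libraries, 1 gene, Sgk1, exceeded 2-fold upwards from Ctx astrocytes to Ctx NPCs, since Sgk2 failed this filter in Ctx astrocytes. With this filter 2 genes were lower, since Nr3c2 failed it in Ctx NPCs, beside 17.5% of all transcripts higher and 13.2% lower. Of 250 ratios of single genes, 232 stayed inside their counting interval and 0 genes past 2-fold changed sign. The 18 that left it all compare Ctx NPCs with Ctx astrocytes, where TMM, DESeq2 and upper-quartile scaling shifted the libraries by 0.18, 0.18 and 0.17 on the log2 scale. Sgk2 was then at 5.25 to 5.27, and at 3.97 with 5 reads added. Under these scalings, Sgk1 was at 1.28 to 1.30, Nr3c1 at -1.24 to -1.23, Pdpk1 at 0.21 to 0.23, and the small ratios of Rictor, Mapkap1 and Nedd4l lay between -0.00 and 0.07. No paired analysis was possible because each condition has 1 library. Depth limits Sgk2 in the astrocyte libraries, with 1 or 2 reads.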
